A study of Mus musculus with 21 samples.

Results

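Lysosomal cathepsins are described here as 10 genes taken by name, Ctsa, Ctsb, Ctsc, Ctsd, Ctsf, Ctsh, Ctsk, Ctsl, Ctso and Ctsz, out of 24411 genes in the deposited tables. All 10 were present in both tables, and all 10 passed the filter on low values in each experiment. The libraries come from the hippocampus of single brain hemispheres of 21 perfused male WT mice, from 2 experiments. For the transfer, B6.SJL-Ptprca Pepcb/BoyJ recipients 4 months old first had their own CD8+ T cells removed by CD8a antibody on days -11 and -7, in both groups, and then had 2 tail vein injections of CD8+ T cells of C57BL/6J donors, for which the labels give 300000 and then 3000000 cells. These were taken from splenocytes and blood mononuclear cells of old donors (22 to 28 months, n = 5, called aged T) or young ones (3 to 4 months, n = 6, called young T). For the depletion, old mice (22 to 24 months) had intraperitoneal injections at intervals of 4 days until they were killed, either of CD8a antibody clone 2.43 (n = 5) or of rat IgG2b as isotype control (n = 5). The labels do not say whether donor cells were pooled.

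Cathepsins are proteases that break down protein inside lysosomes, the acidic compartments where cells digest what they take up or discard. They are made as inactive precursors, carried to the lysosome mostly by mannose 6-phosphate receptors, and switched on by acid and by other proteases. In brain, microglia are known for high lysosomal protease content, and neurons, astrocytes and vessel-associated cells also make cathepsins. The family is a mixture of catalytic types. Cathepsin D (Ctsd) is an aspartic protease, cathepsin A (Ctsa) is a serine carboxypeptidase that also protects other lysosomal enzymes, and the other members are papain-like cysteine proteases.

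Libraries held 9957822 to 15055422 reads assigned to genes. Hippocampal neuron markers were present (8 of 8 listed genes detected in all 4 groups), with summed levels of 769 to 1151 CPM (a gene's reads scaled to the total of its library). T cell transcripts were close to undetected, with 10 markers summing to 0.979 to 2.78 CPM in all libraries. CD8a antibody replicate 5 stood apart, at -57.3 on the first principal component of its experiment against 9.97 to 28.2 for the other 4 antibody libraries. The share of reads from the ribosomal precursor Rn45s was 0.747 to 1.34% for aged T against 0.350 to 0.795% for young T, and 0.556 to 1.30% with the antibody against 0.905 to 1.72% with IgG2b.

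The short stretches below show where a core E-box lies in the promoters of these genes. Transcription factor EB, the master activator of lysosomal genes, is known to bind the CLEAR element, a palindrome built around the E-box CACGTG, and cathepsins are among its known targets. RefSeq promoters (build GRCm38.p6, the mm10 assembly) reach from 250 bases before to 50 bases after each start site. Of the 10 members, 8 were matched, with 9 promoters, because Ctsa has 2 start sites. Ctsb and Ctsh were not matched. CACGTG reads the same on both strands and was found in 4 of these 9 promoters, those of Ctsa, Ctsd, Ctsf and Ctsl, and in 7.15% of 32851 promoters of the same length. TCACGTGA, which contains it, was found for Ctsa and Ctsd and in 0.974% of all promoters. With a further G before and C after it, the motif was in none of the 9 and in 0.326% of all. Each window has 30 bases, 5′ to 3′, with CACGTG in capitals. Position 1 is the first transcribed base at the RefSeq start, and the base before it is -1. The GENCODE gene spans given further below can begin elsewhere. By those spans, the Ctsa window, the Ctsd window from -110 and the Ctsl window lie inside the gene.
Ctsa, chr2:164833758-164833787, plus strand, from -15: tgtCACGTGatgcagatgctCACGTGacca
Ctsd, chr7:142387908-142387937, minus strand, from -110: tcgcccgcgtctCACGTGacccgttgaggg
Ctsd, chr7:142388048-142388077, minus strand, from -250: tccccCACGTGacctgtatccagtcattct
Ctsf, chr19:4855074-4855103, plus strand, from -91: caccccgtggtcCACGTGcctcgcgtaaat
Ctsl, chr13:64370739-64370768, minus strand, from -248: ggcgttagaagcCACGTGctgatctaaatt
The promoter of Ctsz is shown as well, because Ctsz had the smallest p of the members in the depletion experiment, where it did not pass after adjustment. Its 250 bases before the start, at chr2:174439040-174439289 on the minus strand, hold no CACGTG. They hold 2 overlapping GC boxes (GGGCGG, searched on both strands), from -32 and -27, in capitals, and 32.7% of all promoters hold a GC box in that span.
Ctsz: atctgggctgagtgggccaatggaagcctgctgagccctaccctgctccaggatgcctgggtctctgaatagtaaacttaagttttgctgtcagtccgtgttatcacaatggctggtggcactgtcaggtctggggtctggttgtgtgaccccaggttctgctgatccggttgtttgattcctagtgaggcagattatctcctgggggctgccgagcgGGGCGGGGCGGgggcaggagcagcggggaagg
A match of letters describes these windows and says nothing about binding.

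Per length of transcript, Ctsd and Ctsb were the most abundant cathepsin transcripts of the hippocampus in all 4 groups. Levels between genes are compared as normalized counts per kilobase of the principal GENCODE transcript, a scale on which Ctsd stood at 2261 ± 112 (SD, n = 5) and Ctsb at 1765 ± 90.8 with IgG2b. Together they made up 38.5 ± 0.336% and 30.04 ± 0.486% of the summed per-kilobase level of the 10 genes. Ctsl, an endopeptidase, followed at 554 ± 84.6, then Ctsz at 404 ± 39.5. Ctsf was at 296 ± 39.5 and Ctsa at 292 ± 14.9, a pair whose ranges overlapped. Ctso (153 ± 16.8) and Ctsh (104 ± 14.7) were lower. Ctsc (36.9 ± 9.25) and Ctsk (14.0 ± 10.1) came last, and their ranges overlapped. The ranges of Ctsd and Ctsb were separate in both groups of aged mice and overlapped in both groups of young recipients. With the antibody Ctsl and Ctsz overlapped (553 ± 38.6 against 509 ± 23.1), whereas they were separate with IgG2b.

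**Figure D1:**
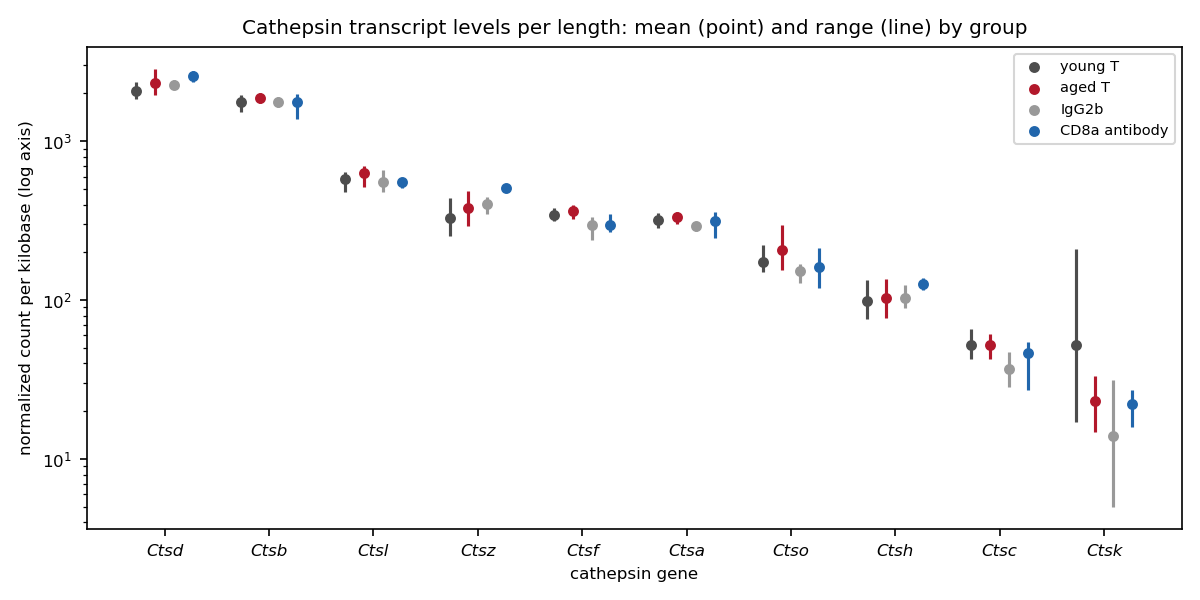
Normalized count per kilobase of transcript (log axis) of the 10 cathepsins in the 4 groups. Points are group means and lines run from the lowest to the highest library. Ctsd and Ctsb lie above the other 8 genes in each group, and Ctsk has the widest range in young T recipients.

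Levels in young and aged mice are set side by side only as CPM, because each table was normalized alone, and age cannot be told apart from experiment. Ctsz was at 35.1 ± 6.87 CPM with young T cells and 40.2 ± 7.51 with aged T cells, in recipients 4 months old, and at 48.9 ± 5.10 with IgG2b and 61.8 ± 2.82 with the antibody in mice of 22 to 24 months. Ctsd was at 326 ± 30.7 and 364 ± 55.7 CPM in the young recipients and at 404 ± 22.4 and 464 ± 32.4 in the aged mice, in the same order. Ctsc was at 9.65 ± 1.49 and 9.63 ± 1.41 CPM against 7.72 ± 1.89 and 9.73 ± 2.32. Summed over the 10 genes, libraries held 1109 to 1518 CPM in the transfer experiment and 1311 to 1664 in the depletion experiment.

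Antibody and IgG2b groups were compared for molecular changes in the old hippocampus once circulating CD8+ T cells had been targeted. No cathepsin passed the test. Ctsz, a carboxypeptidase, was the only member whose groups did not overlap, at 733 ± 33.2 against 582 ± 56.9 normalized counts (SD, n = 5 each). Ctsh, an aminopeptidase, Ctsk and Ctsd also had higher means with the antibody, whereas Ctsb, Ctsf and Ctsl had log2 differences of -0.01, 0.01 and 0.01. limma called 0 of the 10 at an adjusted p under 0.05 and 0.00717% of the 13939 genes tested. edgeR and DESeq2 called 0 of the 10 as well, beside 0.00717% of 13939 genes with edgeR and 0.656% of 14024 with DESeq2. At an unadjusted p under 0.05 there were 3 members, all higher (Ctsz, Ctsh and Ctsk). Over all genes 8.47% were at that level, 4.31% higher and 4.15% lower. Of the 10 log2 differences 9 were above 0, against 49.6% of all genes, with a median of 0.15 against -0.0020 over all genes tested.

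Ctsz lies on chromosome 2 at 174427493 to 174439039 (minus strand, 6 exons). In the 5 antibody libraries it stood at 769, 699.7, 726, 705 and 767 normalized counts, and in the 5 IgG2b libraries at 644, 598, 617, 501 and 549.6. All 5 antibody libraries lay above all 5 IgG2b libraries, and 0.782% of all genes were separated upward in that way, with 1.27% downward. The log2 difference was 0.34 (SE 0.10, interval 0.13 to 0.55, limma adjusted p = 0.324). Leaving out single libraries moved it between 0.28 and 0.37, with adjusted p from 0.162 to 0.707. The authors' deposited table gives Ctsz an adjusted p of 0.0903.

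Ctsd lies on chromosome 7 at 142375911 to 142388038 (minus strand, 9 exons). It read 5852, 4988, 5570, 5307 and 5844 normalized counts with the antibody and 5194, 4795, 4721, 4543 and 4797 with IgG2b. Antibody replicate 2 was the lowest of its group and lay below IgG2b replicate 1, and the other 4 antibody libraries lay above all IgG2b libraries. The log2 difference was 0.20 (SE 0.09, interval -1.64e-05 to 0.39, limma adjusted p = 0.589).

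Ctsh, on chromosome 9 at 90054152 to 90076089 (plus strand, 12 exons), read 224, 204, 188, 193 and 221 with the antibody and 145, 185, 155, 153 and 201 with IgG2b. IgG2b replicate 5 lay among the antibody libraries, and 3 antibody libraries lay above all controls. Its log2 difference was 0.30 (SE 0.13, interval 0.02 to 0.58, limma adjusted p = 0.538).

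Ctsk, the collagen-degrading protease of osteoclasts and fibroblasts, lies on chromosome 3 at 95499256 to 95509362 (plus strand, 8 exons). It was the weakest member, at 24.0, 25.6, 41.1, 40.2 and 36.3 normalized counts with the antibody. With IgG2b it read 47.5 in replicate 1 and 18.6, 17.4, 7.54 and 15.0 in the others. That control library was above every antibody library, and the other 4 were below all of them. Ctsk had a log2 difference of 0.83 (SE 0.39, interval 0.01 to 1.66, limma adjusted p = 0.587), and it ran from 0.55 without IgG2b replicate 4 to 1.17 without IgG2b replicate 1. The fibroblast markers summed to 253 CPM in IgG2b replicate 1 and to 169 to 189 in the other 4 control libraries and 122 to 266 in the antibody libraries, and their part in the Ctsk values was not tested.

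Ctsc, the dipeptidyl peptidase that activates granule serine proteases of immune cells, lies on chromosome 7 at 88278085 to 88310888 (plus strand, 7 exons). It read 125, 124, 137 and 125 normalized counts in antibody replicates 1 to 4 and 67.6 in replicate 5. With IgG2b it read 71.6, 70.6, 85.1, 118 and 115. Antibody replicates 1 to 4 lay above every control and replicate 5 below every control, giving a log2 difference of 0.32 (SE 0.22, interval -0.15 to 0.79, limma adjusted p = 0.724) and 0.50 without replicate 5. Ependymal markers summed to 12.5 CPM in antibody replicate 5 and to 31.0 to 43.3 in the other antibody libraries. In IgG2b replicate 5 they stood at 30.3, against 10.7 to 17.5 in the other controls. Their part in the Ctsc values was not tested.

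Ctso, a cysteine protease, lies on chromosome 3 at 81932601 to 81956725 (plus strand, 8 exons). It read 478, 735, 527, 655 and 417 normalized counts with the antibody and 524, 576, 589.6, 511 and 443 with IgG2b. Antibody libraries held both the highest and the lowest value, and the log2 difference was 0.06 (SE 0.15, interval -0.26 to 0.39, limma adjusted p = 0.935). It was -0.04 without antibody replicate 2. Astrocyte markers summed to 8707 CPM in antibody replicate 2 and 3608 in replicate 5, the libraries with the highest and lowest Ctso, and to 4772 to 5525 in the controls. Their part in the Ctso values was not tested.

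Ctsa lies on chromosome 2 at 164832873 to 164841032 (plus strand, 16 exons). It read 1302, 903, 1187, 1133 and 1227 normalized counts with the antibody and 1133, 1100.3, 1056, 996 and 1031 with IgG2b. Antibody replicate 2 lay below every control and the other 4 antibody libraries above every control, the highest control being less than 1 count below antibody replicate 4. The log2 difference was 0.10 (SE 0.11, interval -0.13 to 0.33, limma adjusted p = 0.823), and 0.19 without antibody replicate 2.

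The 3 remaining members had log2 differences close to 0. Ctsb, on chromosome 14 at 63122462 to 63145923, was at 8399 ± 1094 against 8374 ± 430.4 normalized counts (interval of the log2 difference -0.25 to 0.24). Ctsl, on chromosome 13 at 64359337 to 64370890, was at 1089 ± 76.1 against 1091 ± 167 (-0.23 to 0.25), where the means and the log2 difference of 0.01 differ in sign. Ctsf, on chromosome 19 at 4855130 to 4860918, was at 589 ± 68.8 against 585 ± 78.2 (-0.25 to 0.27). These intervals allow log2 differences of 0.24 to 0.27 upward, so they do not show that levels were equal.

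**Figure D2:**
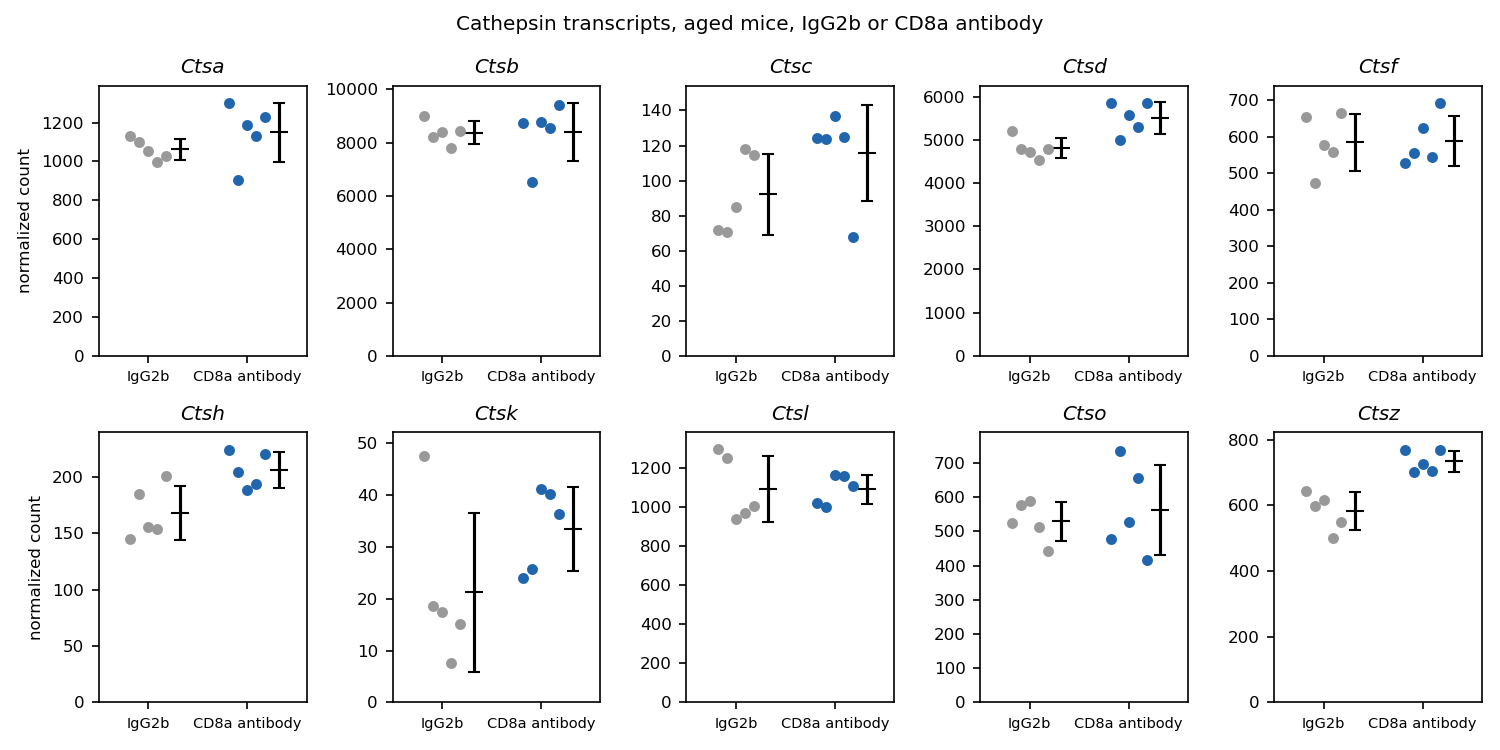
Normalized counts of each cathepsin in aged mice given IgG2b (grey) or the CD8a antibody (blue), with 1 point per library and the mean with SD beside the points. The Ctsz groups do not overlap. For Ctsc, 4 antibody libraries lie at 124 to 137 and 1 lies at 67.6.

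Several lists of cell type markers differed in level between the same libraries, and limma called 0 of their genes. Over all genes tested, 49.6% were higher with the antibody. At an unadjusted p under 0.05, 4.31% of all genes were higher and 4.15% lower. Microglial markers summed to 508 to 657 CPM with the antibody and 426 to 506 with IgG2b. All 15 were higher, 8 of them at an unadjusted p under 0.05, with a median log2 difference of 0.32. Oligodendrocyte markers summed to 4160 to 7995 CPM against 3992 to 5142, with 8 of 8 higher and a median of 0.39. Choroid plexus markers summed to 68.2 to 2701 CPM against 168 to 2280 (7 of 7 higher, median 0.53). Ependymal markers had 5 of 5 tested higher (median 0.70, 2 at an unadjusted p under 0.05), with 12.5 to 43.3 CPM against 10.7 to 30.3. Markers of pericytes and smooth muscle had 6 of 7 higher (median 0.39, 3 at that level), with 119 to 203 CPM against 103 to 128. Inhibitory neuron markers lay the other way, with 5 of 6 lower (median -0.27, 1 at that level) and 688 to 1029 CPM against 986 to 1146. Border macrophage markers ran from 16.2 to 27.8 CPM with the antibody and from 15.9 to 27.4 with IgG2b, and 6 monocyte and neutrophil markers summed to at most 4.82 CPM in a library. In these bulk samples, more cells of a type and more RNA per cell cannot be told apart, and the part of these cell types in the cathepsin values was not tested.

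Recipients of aged and of young CD8+ T cells were compared for what old donor cells change in a young hippocampus. Cathepsin levels of aged T and young T recipients overlapped for all 10 members. Ctso, Ctsz and Ctsd had log2 differences of 0.15 to 0.24, the other members but Ctsk lay between 0.00 and 0.11, and Ctsk was at -0.47. limma, edgeR and DESeq2 each called 0 of the 10 at an adjusted p under 0.05, and limma called 0% of 14162 genes. At an unadjusted p under 0.05 limma had 0 members, against 8.25% of all genes, 4.29% higher and 3.96% lower. Of the 10 log2 differences 9 were above 0, against 49% of all genes, and the median was 0.08, against -0.0045 over all genes tested.

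Ctso read 756, 587, 1029, 538 and 684 normalized counts in the 5 aged T libraries. In the 6 young T libraries the lowest was 519, the median 564 and the highest 777. Aged T replicate 3 was above all young T libraries and the other 4 fell within or near their range. The log2 difference was 0.24 (SE 0.15, interval -0.08 to 0.55, limma adjusted p = 0.657), and 0.10 without aged T replicate 3.

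Ctsz read 532, 522, 555, 425 and 702 normalized counts in aged T recipients. Young T recipients ran from 365 through a median of 472 to 633. Aged T replicate 5 was above every young T library, and replicate 4 lay below the young T median. The log2 difference was 0.20 (SE 0.14, interval -0.09 to 0.49, limma adjusted p = 0.677), and it was 0.10 without aged T replicate 5.

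Ctsd read 5087, 4821, 4611, 4164 and 6067 normalized counts in the aged T libraries, and among young T libraries the lowest, median and highest values were 3942, 4457 and 5012. Aged T replicates 1 and 5 exceeded all young T libraries, and replicate 4 was below the young T median. Its log2 difference was 0.15 (SE 0.10, interval -0.06 to 0.36, limma adjusted p = 0.664), and 0.08 without aged T replicate 5. Choroid plexus markers summed to 3938 and 3923 CPM in aged T replicates 1 and 5. In aged T replicates 2, 3 and 4 they stood at 1635, 180 and 158, and in the young T libraries at 209 to 2439. Their part in the Ctsd values was not tested.

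Ctsk was dominated by a single library. It read 28.4, 50.8, 49.5, 22.3 and 25.4 normalized counts in aged T recipients. Young T replicate 1 read 319, and the other 5 young T libraries 25.8 to 35.8. With that library the log2 difference was -0.47 (SE 0.53, interval -1.59 to 0.65, limma adjusted p = 0.806), and without it 0.08. On recovered reads the difference was -1.19 with edgeR (adjusted p = 0.581) and -1.17 with DESeq2, which gave no adjusted p. The authors' deposited table gives no p for Ctsk in this comparison. Fibroblast markers summed to 548 CPM in young T replicate 1, to 160.2 to 271 in the other young T libraries and to 159 to 377 in the aged T libraries. Their part in the Ctsk value was not tested.

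Log2 differences of the other 6 members ran from 0.00 to 0.11. Ctsl was at 1241 ± 152 normalized counts for aged T against 1145 ± 109 for young T, with 3 of 5 aged T libraries above every young T library (interval of the log2 difference -0.09 to 0.32). Ctsb was at 8813 ± 502 against 8344 ± 802 (-0.10 to 0.27). Ctsf was at 716 ± 57.5 against 681 ± 43.0 (-0.10 to 0.24) and Ctsa at 1213 ± 78.1 against 1174 ± 87.2 (-0.11 to 0.21). Ctsh was at 168 ± 34.8 against 159 ± 31.6 (-0.27 to 0.42) and Ctsc at 131 ± 17.2 against 131 ± 19.0 (-0.29 to 0.29).

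Lists of cell type markers also differed in level between the recipients, and limma called 0 of their genes. Over all genes tested, 49% were higher with aged T cells. At an unadjusted p under 0.05, 4.29% of all genes were higher and 3.96% lower. Oligodendrocyte markers had 8 of 8 higher with aged T cells (median log2 difference 0.35, 3 at an unadjusted p under 0.05), with 3584 to 6811 CPM against 3166 to 5718. Ependymal markers had 6 of 6 higher (median 0.67, 3 at that level), with 16.9 to 50.9 CPM against 13.4 to 27.6. Choroid plexus markers had 7 of 7 higher (median 0.32, none at that level), with 158 to 3938 CPM against 209 to 2439. Fibroblast markers had 8 of 8 lower (median -0.82, 3 at that level), and those of pericytes and smooth muscle 7 of 7 lower (median -0.31, 3 at that level), with 106 to 197 CPM against 136 to 291. Microglial markers had 9 of 15 higher (median 0.06, none at that level), with 378 to 518 CPM against 357 to 539.95. Border macrophage markers had 4 of 4 tested lower (median -0.41, none at that level), with 15.5 to 27.7 CPM against 13.7 to 46.8. Endothelial markers had 5 of 6 lower (median -0.21, 1 at that level). The part of these cell types in the cathepsin values was not tested.

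**Figure D3:**
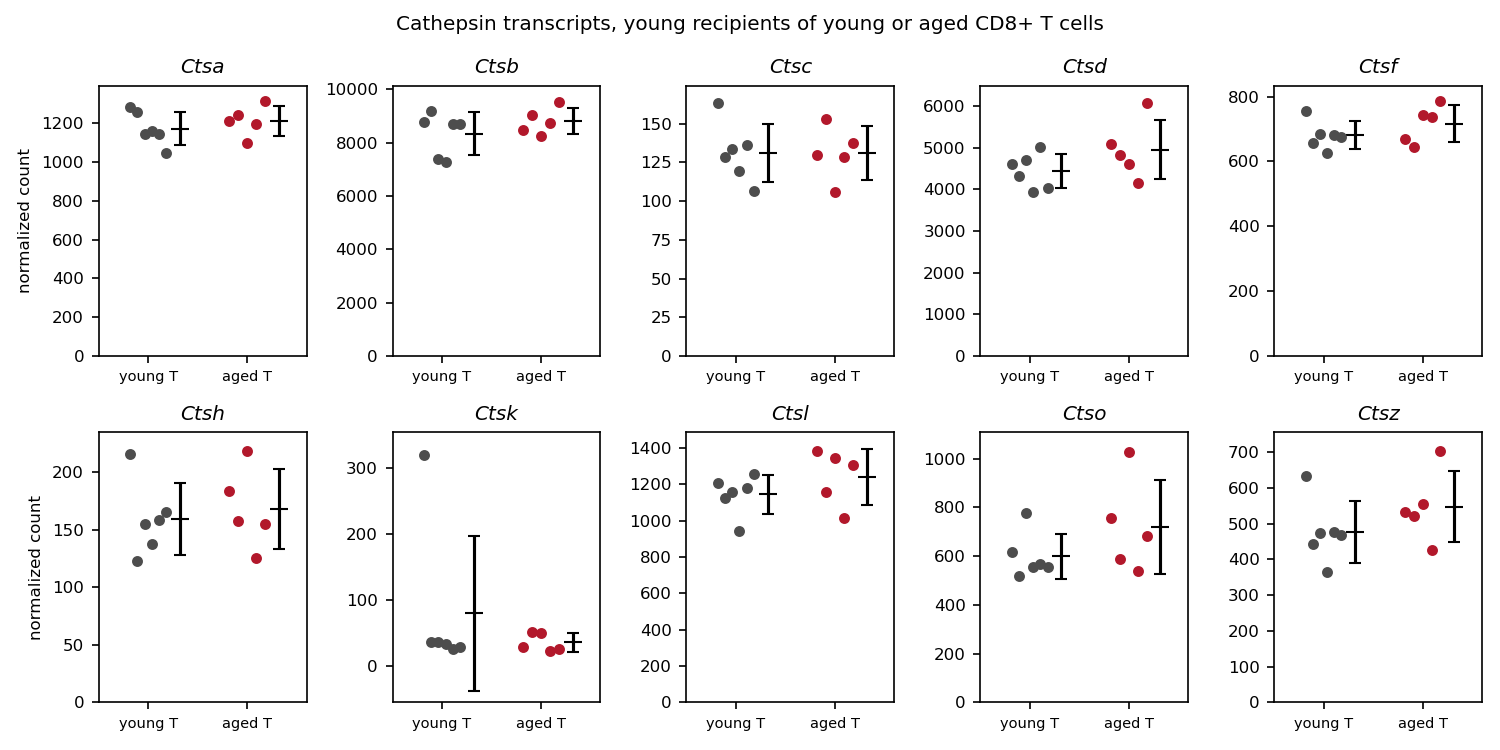
Normalized counts of each cathepsin in recipients of young (grey) or aged (red) CD8+ T cells, with 1 point per library and the mean with SD beside the points. Groups overlap in all 10 panels, and in the Ctsk panel young T replicate 1 stands at 319 normalized counts.

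**Figure D4:**
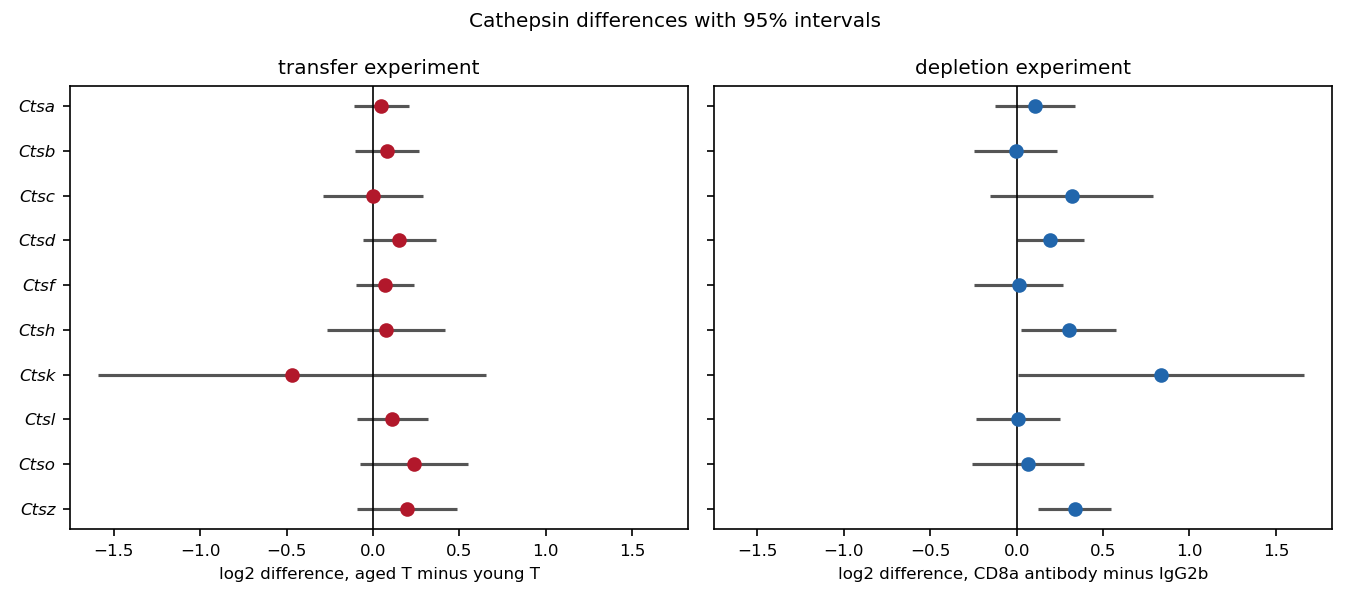
Log2 difference of each cathepsin with its 95% interval from limma, aged T minus young T on the left and CD8a antibody minus IgG2b on the right. Intervals exclude 0 for Ctsz, Ctsh and Ctsk on the right and for none on the left, and none of the 20 values passed after adjustment over all genes.

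Variation between mice of a group was compared between the 10 genes. Each library was taken as its deviation from its own group mean, and Pearson's r was computed over 21 libraries, which share dissection and depth. The 45 pairs had a median r of 0.21, and 32 were above 0. Ctsd and Ctsz had an r of 0.74 (Spearman's rho 0.71), with 0.75 in the transfer and 0.73 in the depletion libraries. Ctsa and Ctsb had one of 0.74 (rho 0.72), with 0.45 in the transfer and 0.92 in the depletion libraries. Without the 2 farthest libraries both pairs were at 0.56. Ctsb and Ctso had an r of -0.59 (rho -0.47), with -0.49 in the transfer and -0.72 in the depletion libraries, and -0.61 without the 2 farthest.

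**Figure D5:**
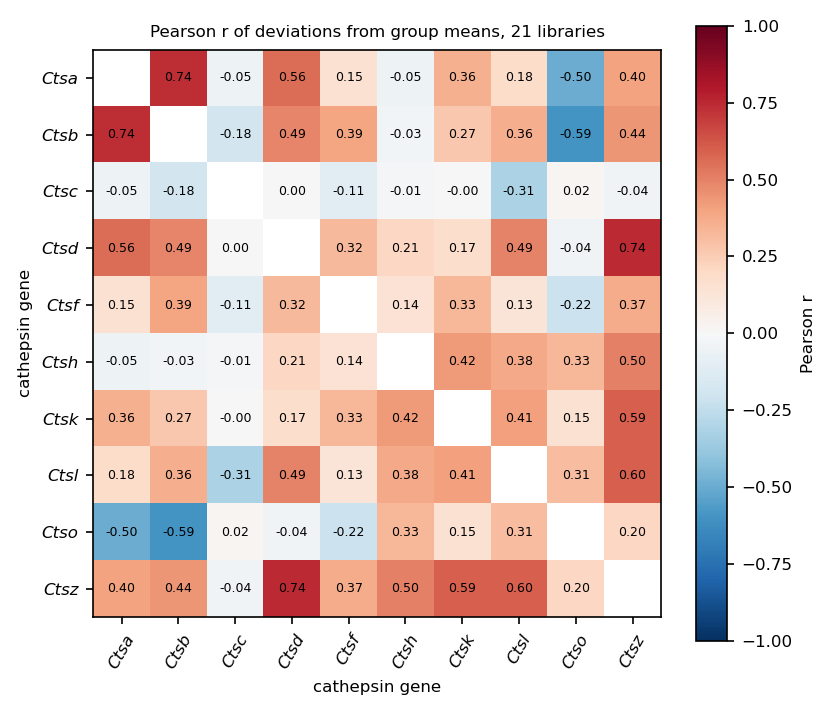
Pearson's r between cathepsin genes over 21 libraries, after each library's own group mean was subtracted on the log2 scale. Ctsd with Ctsz and Ctsa with Ctsb have the highest values, 0.74, and Ctsb with Ctso has the lowest, -0.59.

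Different cathepsins ran with different genes. Among 13134 other genes, those most like Ctso were Ptgr2 (r = 0.92), Papss2 (0.87) and Dio2 (0.87), the last a thyroid hormone deiodinase of astrocytes. The mean of 8 astrocyte markers had an r of 0.88 with Ctso (rho 0.86, 0.93 in the transfer and 0.83 in the depletion libraries, and 0.81 without the 2 libraries farthest from the Ctso median). For Ctsk the most similar genes were Serpinf1 (0.93), Cpxm2 (0.88) and the collagen gene Col14a1 (0.83). Without the 2 libraries farthest from the Ctsk median these became 0.87, 0.63 and 0.54. Ctsc ran most closely with Zak (0.85) and with Mns1 (0.84) and Ak7 (0.81), both known from motile cilia. Its r with the ependymal markers was 0.66 (0.43 in the transfer and 0.81 in the depletion libraries). With the mean of 15 microglial markers, r was 0.60 for Ctso, 0.36 for Ctsl, 0.33 for Ctsz, 0.29 for Ctsh and 0.17 for Ctsd. The other members lay between -0.24 (Ctsb) and 0.19 (Ctsk). In the depletion libraries alone it was 0.26 for Ctso, 0.34 for Ctsl, 0.14 for Ctsz, -0.05 for Ctsh and 0.12 for Ctsd. For Ctsf the experiments differed in sign, with 0.56 in the transfer and -0.70 in the depletion libraries, and -0.11 over both. Ctso also had an r of 0.58 with 4 border macrophage markers.

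For Ctsh the list was Haus1 (0.86), the actin regulator Arpc1b (0.84) and H2-K1 (0.77), a chain of MHC class I. With 6 endothelial markers Ctsh had an r of 0.59 (rho 0.38, 0.88 in the transfer and -0.24 in the depletion libraries). Ctsz was most like Tmbim6 (0.83), Ppp1r14a (0.82) and the small heat shock protein Cryab (0.81). Ctsd was most like Lrp10 (0.86), Tmem98 (0.85) and the heme transporter Slc48a1 (0.78). With the choroid plexus markers Ctsd had an r of 0.51 (0.81 in the transfer and -0.01 in the depletion libraries). Ctsb ran with the lysosomal membrane protein Laptm4b (0.91), St8sia5 (0.91) and Anapc7 (0.90), and it had an r of 0.69 with 6 inhibitory neuron markers and of -0.67 (rho -0.35) with the astrocyte markers. For Ctsa the genes were Rabggta (0.87), Stx6 (0.84) and Lpcat4 (0.84), for Ctsf Fbxo9 (0.82), Prpf38a (0.81) and Ndel1 (0.79), and for Ctsl Insig1 (0.84), Cmtm5 (0.79) and Serpinb1a (0.77). Some of these differed between the experiments. Cryab with Ctsz had an r of 0.88 in the transfer and 0.43 in the depletion libraries, and H2-K1 with Ctsh 0.84 and 0.53. Fbxo9 and Prpf38a with Ctsf had 0.54 and 0.48 in the transfer and 0.94 and 0.95 in the depletion libraries. All these values describe the libraries and carry no test.

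Other cathepsins were represented almost solely by Ctss, the cathepsin S of microglia and antigen-presenting cells. Of 13 other family members listed, 8 had 0 reads in all 21 libraries, which allows up to 0.0111 CPM over all libraries. Ctse had 39 reads in all, Ctsw, of cytotoxic lymphocytes, 29, Ctsg 8 and Napsa 7. Ctss had 1399 ± 196 normalized counts with the antibody and 1112 ± 99.3 with IgG2b. Its groups did not overlap, as for 0.782% of all genes upward. It did not pass (log2 difference 0.32, SE 0.11, limma adjusted p = 0.425). In the transfer it was at 906 ± 182 against 782 ± 87.9 (0.20, SE 0.12, limma adjusted p = 0.656).

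Of the 119 pathway genes tested in each experiment, limma called 0. At an unadjusted p under 0.05 there were 11 higher and 2 lower in the depletion experiment, and 3 higher and 3 lower in the transfer. Over all genes the shares were 4.31% higher and 4.15% lower in the depletion experiment and 4.29% and 3.96% in the transfer. At any p, 49.6% of all genes were higher in the depletion experiment and 49% in the transfer. Cystatins, the inhibitors of cysteine cathepsins, had 4 of 4 tested members higher with the antibody, 2 of them at an unadjusted p under 0.05. The secreted cystatin C gene Cst3 stood at 17813 ± 3293 normalized counts, against 14180 ± 1109 (limma adjusted p = 0.537). The leukocystatin gene Cst7 was at 19.7 ± 14.3 against 7.79 ± 1.76 (0.576), and Cstb had a log2 difference of 0.13 (0.825). Cst7 passed the filter, a mean of at least 10 over both groups, only through its antibody libraries. The filter thus favoured its place in both of these cystatin counts, which give no support on its account. In the transfer Cst3 was at 16572 ± 3586 against 13755 ± 2328 (0.629), with 5 of 5 aged T libraries above the young T median.

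Among 38 other lysosomal hydrolases tested in the depletion experiment, 22 were higher and 16 lower with a median of 0.01. Gaa, the acid alpha-glucosidase, was at 3946 ± 605 against 4754 ± 277 normalized counts (0.532 for the limma adjusted p). Its groups did not overlap, as for 1.27% of all genes downward. Lgmn, the legumain that processes cathepsin precursors, had a log2 difference of 0.07 (0.888). Of 23 membrane and transport proteins of the lysosome, 14 were higher with a median of 0.03. The tetraspanin gene Cd63 was at 1914 ± 280.2 against 1427 ± 240 (0.355), Laptm5 at 582 ± 43.8 against 474 ± 43.4 (0.423) and the cholesterol carrier gene Npc2 at 1165 ± 108 against 950.1 ± 128 (0.457). Cd68 had a log2 difference of 0.31 (0.621), Lamp2 of 0.09 (0.889) and Lamp1 of 0.06 (0.892).

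The proton pump that acidifies lysosomes, the V-ATPase, had 3 of 19 tested subunits higher and 16 lower with the antibody, with a median of -0.06. Its higher members with the smallest p were Tcirg1 (117 ± 12.7 against 85.3 ± 17.2 normalized counts, limma adjusted p = 0.435) and Atp6v0e (log2 difference 0.30, 0.533), and Atp6ap2 stood at -0.20 (0.564). Among 17 sorting and delivery genes 4 were higher and 13 lower, with a median of -0.09. Vps29 was at 0.21 (0.572), Gnptab, which makes the mannose 6-phosphate tag, at -0.22 (0.681) and Vps26a at -0.13 (0.711). The receptor genes M6pr, Igf2r and Sort1 had log2 differences of -0.01 (0.985), -0.19 (0.762) and -0.14 (0.832). Of 17 regulators around transcription factor EB, 10 were higher. Tfeb itself was at 135 ± 20.98 against 100.9 ± 10.2 normalized counts (0.435), without overlap, as for 0.782% of all genes upward. Rragb was at a log2 difference of -0.20 (0.645), Rragc at -0.17 (0.679), Mitf at 0.21 (0.801) and Tfe3 at 0.12 (0.804).

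In the transfer the mannose 6-phosphate receptors lay on opposite sides. M6pr, the cation-dependent receptor, was at 1636 ± 49.8 normalized counts for aged T against 1438 ± 66.2 for young T, and its groups did not overlap, as for 0.459% of genes upward. Igf2r, the cation-independent receptor, was at 461 ± 68.4 against 595 ± 93.6, with 4 of 5 aged T libraries below every young T library. The limma adjusted p was 0.600 for both, and also for Gga3 (log2 difference -0.20), Fnip2 (-0.38), Lamtor1 (0.26), Lamtor3 (0.18), Fuca1 (0.23), Idua (-0.30) and Atp6v1g1 (0.19). Tfeb was at 155 ± 30.7 against 131 ± 28.5 normalized counts (0.672), and Lamp1 at 3682 ± 319 against 3345 ± 215 (0.627). Counts by list were 8 of 17 higher for sorting and delivery, 23 of 39 for hydrolases and 14 of 23 for membrane and transport proteins. V-ATPase subunits had 15 of 19 higher, and the regulators around Tfeb 10 of 17. The medians were -0.03, 0.03, 0.02, 0.09 and 0.07. The Rn45s share also differed between these groups, and its part in these values was not tested.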

How the data were processed

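Poly(A)-enriched, strand-specific, paired-end libraries of hippocampal RNA were sequenced, per the labels' protocols. STAR, RSEM, DESeq2 and build mm10 are named, per the submitters' processing notes, without roles or versions. The annotation used for counting is not given in the sources used here. Values in each deposited table are a signal that equals reads over a constant of the library, as their steps show. The authors' comparison columns hold log2 fold changes of control over treated, their errors, a test score and p-values, per the file headers. Every difference here is treated minus control. All values (100%, relative tolerance 1e-06) were whole multiples of 1 step per library, so reads were recovered. For young T replicate 5 this step lies near 1.

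Differences were tested by limma with a mean-variance trend (version 3.58.1, under R 4.3.3). Its input was log2(normalized count + 1), each experiment alone, for genes with a mean of at least 10, called at a Benjamini-Hochberg adjusted p under 0.05 over all genes tested. Fold changes on this scale understate changes of weak genes. Intervals are 95% limma intervals. edgeR 4.0.16 and DESeq2 1.42.0 on recovered reads, other pseudocounts and filters, TMM scaling and leaving out each library were alternatives. The functions were tested on simulated counts. The members and lists were chosen with earlier results of these data known. Named genes are the 10 members, a fixed set, the 3 of each pathway list with the smallest p, and the 3 most correlated genes per member. Of the genes this rule names, 2 are not reported here. Lists covered other cathepsins, cystatins, sorting, hydrolases, membrane and transport proteins, V-ATPase, regulators of Tfeb and 14 sets of cell type markers. Coordinates, exons and lengths are from GENCODE vM21 (GRCm38). Replicates were numbered in record order and p-values measure the spread between these samples. Read limits cover counting error only.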

Additional observations from a re-analysis of the deposited data

Results flagged for a closer look

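In 3 of 40 groups of libraries tested, a cathepsin had 1 library far from the others of its group by Dixon's criterion, which chance gives in about 1 of 20 groups. Ctsk stood at 319 normalized counts in young T replicate 1, against 25.8 to 35.8 in the other 5 young T libraries. Ctsk stood at 47.5 in IgG2b replicate 1, against 7.54 to 18.6 in the other 4. Ctsc stood at 67.6 in CD8a antibody replicate 5, against 124 to 137 in the other 4.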

How the results depend on the processing

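The number of cathepsins called stayed at 0 in both experiments under all alternatives, as did that of pathway genes, and no single cathepsin passed under any of them. The number of all genes called in the depletion experiment was 1 with limma, 92 with DESeq2 and 0 without the mean filter, and it ran from 0 to 25 when single libraries were left out, the latter without CD8a antibody replicate 5. In the transfer it stayed at 0. The median log2 difference of the cathepsins ran from 0.05 to 0.13 in the transfer and from 0.13 to 0.21 in the depletion experiment when single libraries were left out. Signs turned in 23 of 349 fits of single members, among them Ctsk in the transfer, from -0.47 to 0.081 without young T replicate 1. With edgeR, Ctsc was at -0.0035 in the transfer and Ctsb at 0.013 in the depletion experiment. With DESeq2, Ctsb was at 0.0043 and Ctsl at -0.0030 in the depletion experiment. Without single libraries, the transfer differences ran from -0.058 to 0.074 for Ctsc, -0.025 to 0.17 for Ctsh and -0.63 to 0.081 for Ctsk, and the depletion differences from -0.049 to 0.083 for Ctsb, -0.061 to 0.061 for Ctsf, -0.043 to 0.072 for Ctsl and -0.039 to 0.17 for Ctso. The cause was not tested. Ctsk was not tested at a mean of at least 50 in the depletion experiment. No paired analysis was possible because the sample names of the groups compared share no replicate numbers. Depth limits Ctsk most, with 7.54 to 50.8 normalized counts in all libraries but young T replicate 1.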
